A study of Homo sapiens with 8 samples.

Results

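This account follows 10 genes of detoxification and redox defence in single-cell RNA libraries of the human cell line SUM159, an established model of triple-negative breast cancer. They are the aldo-keto reductases AKR1C1, AKR1C2, AKR1C3 and AKR1B1 and the NRF2 target genes NQO1, TXNRD1, SLC7A11, GCLM, HMOX1 and SRXN1. They were chosen by name, with earlier results of these data known. All 10 were found among the 18955 genes of the deposited table of UMI counts (unique molecular identifiers, which count each captured RNA molecule once). Of these, 9 reached the level needed for testing between libraries, 5 CPM (UMI counts scaled by the library's total) in at least 2 libraries, as did 9288 genes in all. SRXN1 did not reach it.

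The study asked how these cells come to resist JQ1, an inhibitor of BET bromodomain proteins, given with palbociclib, an inhibitor of the kinases CDK4 and CDK6, or with paclitaxel, which stabilises microtubules. There were 8 libraries in 7 groups, 2 for JQ1 alone and 1 for each other group: cells before treatment (pre-treatment), and cells passaged up to 18 times in DMSO vehicle, in paclitaxel (0.6 nM), in JQ1 (100 nM, libraries JQ1-A and JQ1-B), in palbociclib (160 nM) or in JQ1 with either partner at those doses. DMSO, paclitaxel, JQ1-A and JQ1+paclitaxel came from 1 experiment, and palbociclib, JQ1-B and JQ1+palbociclib from another, which has no vehicle library here. All cells carried a lentiviral barcode library, each library pooled cells of the triplicate cultures of its treatment, and of the JQ1+palbociclib cultures 1 had died out during selection.

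NRF2, encoded by NFE2L2, is a transcription factor that KEAP1 holds in the cytoplasm and delivers for degradation. When reactive electrophiles or oxidants modify KEAP1, NRF2 accumulates, pairs with a small MAF protein and binds antioxidant response elements near genes for quinone reduction, thioredoxin and glutathione supply, heme breakdown and the reduction of carbonyl compounds. BACH1 competes for the same elements as a repressor and is best known for holding down HMOX1. The AKR1C enzymes reduce steroids, prostaglandins and reactive carbonyls with NADPH, and their expression is widely used as a readout of NRF2 activity in human cells.

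The core of the antioxidant response element, TGACNNNGC, was searched on both strands of the 1000 bases before the start of the principal transcript of each protein-coding gene (MANE Select transcripts, GENCODE annotation lifted to GRCh37, the build to which the reads had been aligned). It occurred in 32.6% of 18920 such windows and in those of 3 of the 10 genes. The narrower form TGACTCAGC occurred in 1.31% of windows and, of the 10, only in that of NQO1. The sites are shown because they lie before 3 genes whose levels are set against one another below, with the core in capitals as it reads on the strand of the gene.
NQO1: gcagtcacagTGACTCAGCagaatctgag
TXNRD1: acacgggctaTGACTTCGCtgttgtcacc
GCLM: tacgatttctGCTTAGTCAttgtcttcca

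The NQO1 stretch is chr16:69760900-69760928 (minus strand), and its core begins 455 bases before the transcript start. The TXNRD1 stretch is chr12:104609448-104609476 (plus strand), with the core 99 bases before the start. The GCLM stretch is chr1:94375002-94375030 (minus strand), where the core lies in the opposite orientation and begins 34 bases before the start. The TXNRD1 stretch overlaps no annotated gene. That of NQO1 lies in an exon of the divergent transcript NQO1-DT on the opposite strand, and 11 bases of that of GCLM lie in an exon of another GCLM transcript. No match in the other 7 windows says only that these letters are not within them. A match is a description of sequence and not evidence of binding.

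The libraries held 459 to 1024 cells and 10621159 to 24240835 UMIs, with a median of 20664 to 22503 UMIs per cell. Mitochondrial UMIs made up a median of 4.69 to 7.18% of a cell in the 4 libraries with JQ1 and 3.72 to 5.58% in the 4 without, and the part of this in the differences below was not tested. The cells carried mesenchymal VIM at 3279 to 4502 CPM, with CD44 at 228.1 to 437.2 CPM and the keratins KRT8 and KRT18 at 274.7 to 668.7 CPM, while ESR1 and PGR were at most 0.139 CPM and ERBB2 was at 5.32 to 12 CPM. The leukocyte genes PTPRC and CD3D and the epithelial gene EPCAM were at most 0.77 CPM. Cell barcode sequences were shared between libraries by 26 of 5738 cells. Sums over a library cannot tell fewer cells with a gene from less RNA of it per cell. Shares of cells are given further on, but for genes of low counts they follow the mean level and cannot tell these apart either.

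The 3 AKR1C genes were lowest in the paclitaxel libraries. They lie side by side on chromosome 10 (GRCh37), AKR1C1 at chr10:5005445-5025475 on the plus strand, AKR1C2 at chr10:5029967-5060223 on the minus strand and AKR1C3 at chr10:5077546-5149878 on the plus strand. AKR1C1, which inactivates progesterone, was at 37.1 CPM in pre-treatment, 46.2 in DMSO, 18.1 in paclitaxel, 40.7 in JQ1-A, 20.7 in JQ1+paclitaxel, 33.8 in palbociclib, 36.2 in JQ1-B and 22.9 in JQ1+palbociclib. Both paclitaxel libraries were thus below all 6 others, and JQ1+palbociclib was next to them. The 95% counting intervals of JQ1+paclitaxel (18.4 to 23.2 CPM) and JQ1+palbociclib (21.0 to 24.8 CPM) overlapped. AKR1C2, which inactivates dihydrotestosterone, was at 26.5 CPM in pre-treatment, 39.9 in DMSO, 10.1 in paclitaxel, 50.5 in JQ1-A, 14.9 in JQ1+paclitaxel, 21.5 in palbociclib, 45.4 in JQ1-B and 27.1 in JQ1+palbociclib. AKR1C3, which makes testosterone and prostaglandin F, was at 75.4 CPM in pre-treatment, 111.6 in DMSO, 37.7 in paclitaxel, 104.9 in JQ1-A, 65.5 in JQ1+paclitaxel, 81.4 in palbociclib, 96.9 in JQ1-B and 82.3 in JQ1+palbociclib. The order was the same at the bottom in all 3 genes: paclitaxel was the lowest library and JQ1+paclitaxel the next. In AKR1C1 the 2 were not separated by counting error (ratio 1.14, 95% interval 0.975 to 1.34). At the top, AKR1C1 and AKR1C3 were highest in DMSO and AKR1C2 in JQ1-A.

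**Figure D1:**
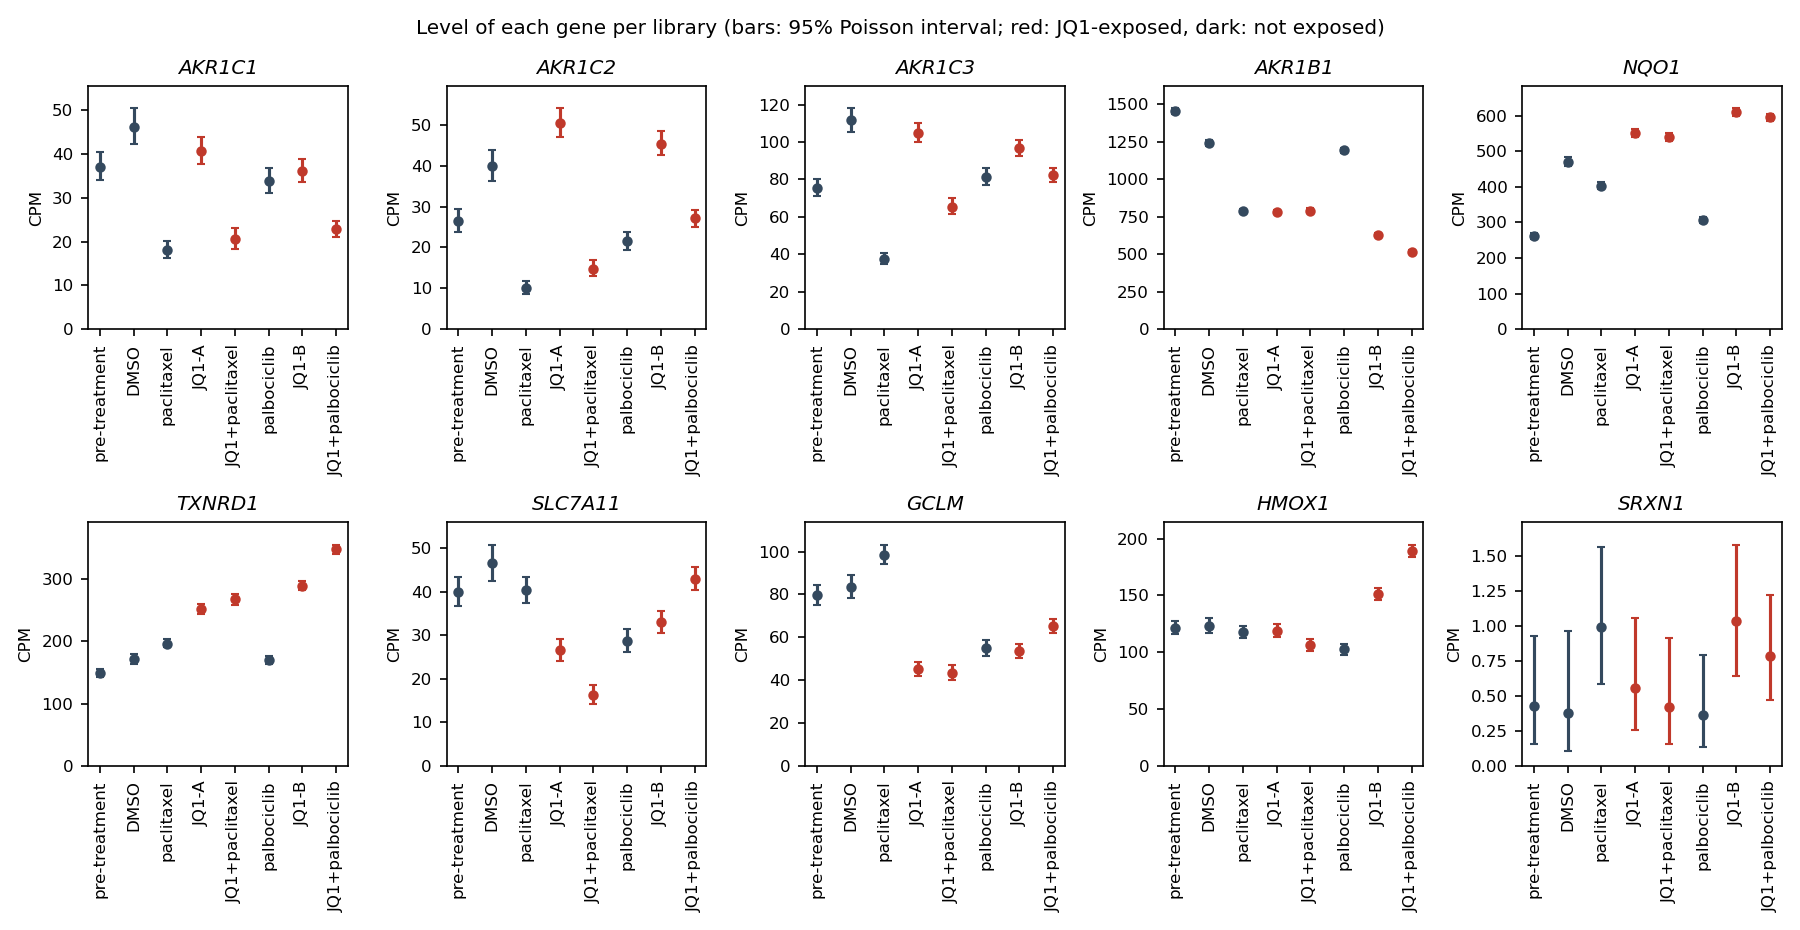
Level of each of the 10 genes (CPM, linear axis from 0) in the 8 libraries, with the 95% Poisson interval of the count as bars; red points are libraries with JQ1 and dark points those without. The AKR1C genes are lowest in paclitaxel and JQ1+paclitaxel, whereas NQO1 and TXNRD1 are above all dark points in every red one.

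Of the 9 tested genes 3, the AKR1C genes, had both paclitaxel libraries below all 6 others, and 3.56% of the 9288 genes did so. In the additive model of the 3 exposures (edgeR, quasi-likelihood test, Benjamini-Hochberg adjustment over 9288 genes), the paclitaxel term of AKR1C2 was -1.67 on the log2 scale (SE 0.20), its unadjusted p of 2.18e-05 was the smallest of all genes, and its adjusted p was 0.113. The term of AKR1C1 was -1.0 (SE 0.21, unadjusted p = 0.00113, rank 9) and that of AKR1C3 was -0.90 (SE 0.23, unadjusted p = 0.00384, rank 22), each with an adjusted p of 0.885. No gene passed the adjusted threshold for paclitaxel with 2 libraries against 6 (0% called, 395 genes at an unadjusted p under 0.05), and so none of the 9 did. DESeq2 called 9 genes for paclitaxel, 2 of them AKR1C1 (adjusted p = 0.00862) and AKR1C2 (adjusted p = 5.88e-11). Over 15 other settings the adjusted p was 5.88e-11 to 0.633 for AKR1C2 (under the threshold in 3), 0.00862 to 0.999 for AKR1C1 (in 1) and 0.0573 to 0.999 for AKR1C3 (in 0). Within the paclitaxel experiment alone (2 libraries against 2, edgeR), the term of AKR1C2 was -1.85 (adjusted p = 0.000444), that of AKR1C1 -1.15 (adjusted p = 0.0754) and that of AKR1C3 -1.10 (adjusted p = 0.0782).

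In that experiment paclitaxel was given both with and without JQ1. The summed level of the 3 AKR1C genes was 197.7 CPM in DMSO and 66 CPM in paclitaxel, a ratio of 0.334 (95% counting interval 0.311 to 0.358). It was 196.1 CPM in JQ1-A and 101.1 CPM in JQ1+paclitaxel, a ratio of 0.516 (0.484 to 0.549). Between single libraries there is no replicate check, and these intervals cover counting error only. Of the 9 genes 3, the AKR1C genes, differed more than 2-fold between paclitaxel and DMSO, against 2.96% of all genes, and 1 of 9, AKR1C2 (ratio 0.294), did so between JQ1+paclitaxel and JQ1-A, against 0.484%. The test of unequal paclitaxel differences with and without JQ1 gave log2 values of 0.35 (SE 0.26) for AKR1C1, 0.06 (SE 0.33) for AKR1C2 and 0.72 (SE 0.29) for AKR1C3. None of the 9 genes was called in it (36 of 9288 genes, 0.388%). An unadjusted edgeR p under 0.05 was found for 3 of the 9 and for 1577 of the 9288 genes. DESeq2 called 1 of the 9, AKR1B1, and 0.807% of all genes.

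The spread between libraries of like exposure sets a scale for these ratios. The AKR1C sum was 1.42 times as high in DMSO as in pre-treatment (1.34 to 1.51), which differ in passaging, and 0.91 times as high in JQ1-B as in JQ1-A (0.868 to 0.955), which come from separate experiments. None of the 9 genes differed more than 2-fold in either pair, where 0.668% and 0.258% of all genes did. Counts within the family are uncertain at the level of the single gene. Words of 50 bases were taken from the last 500 bases of the longest coding transcript of each gene. Of these, 53.2% in AKR1C2 and 27.1% in AKR1C3 also occur in transcripts of other aldo-keto reductases, so reads there may be shared or dropped. For AKR1C1 and AKR1B1 the share was 0%. For AKR1C1 this covers the end of a transcript of 6543 bases only. The ends of its other coding transcripts were not examined, so its counts may be ambiguous too.

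The palbociclib terms of this family were nearer to 0. The palbociclib term of AKR1C2 was -0.68 (SE 0.19, edgeR adjusted p = 0.103) and that of AKR1C1 -0.46 (SE 0.20, adjusted p = 0.229), while AKR1C3 stood at -0.19 (SE 0.22). The AKR1C sum was 132.3 CPM in JQ1+palbociclib and 178.5 CPM in JQ1-B, a ratio of 0.741 (0.706 to 0.777), and 136.8 CPM in palbociclib alone. None of the 9 genes was called for palbociclib (26 of 9288 genes, 0.28%). An unadjusted edgeR p under 0.05 was found for 1 of the 9 and for 2056 of the 9288 genes. DESeq2 called AKR1C2 (adjusted p = 0.0281, with 0.0281 to 0.898 over 14 other settings) and 5.54% of all genes. Both palbociclib libraries come from the experiment without a vehicle library.

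JQ1 exposure went with higher levels of the quinone and thioredoxin reductases. NQO1, which reduces quinones by transfer of an electron pair, was at 551.7 CPM in JQ1-A, 540.4 in JQ1+paclitaxel, 610.3 in JQ1-B and 594.9 in JQ1+palbociclib, against 261.7 in pre-treatment, 470.3 in DMSO, 403.7 in paclitaxel and 306.8 in palbociclib. TXNRD1, which keeps thioredoxin reduced, was at 252.1 CPM in JQ1-A, 267.2 in JQ1+paclitaxel, 289.1 in JQ1-B and 347.7 in JQ1+palbociclib, against 149.6 in pre-treatment, 171.5 in DMSO, 196.4 in paclitaxel and 169.6 in palbociclib. In both genes all 4 exposed libraries were above all 4 unexposed ones. The mean of NQO1 was 574.3 ± 33.6 CPM with JQ1 and 360.6 ± 94.1 CPM without (SD, n = 4 each). That of TXNRD1 was 289 ± 42 CPM with and 171.7 ± 19.2 CPM without. The unexposed NQO1 levels were themselves unequal, DMSO being 1.80 times as high as pre-treatment (1.72 to 1.88), and JQ1-A was 1.17 times as high as DMSO (1.13 to 1.21).

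Of the 9 genes 4 were called for JQ1, all of them higher, where 37.6% of all genes were called, 17.8% higher and 19.7% lower. TXNRD1 rose 1.92-fold (log2 fold change 0.94, SE 0.10, edgeR adjusted p = 0.00103) and NQO1 1.83-fold (0.87, SE 0.17, adjusted p = 0.00618). AKR1C2 rose 1.60-fold (0.68, SE 0.15, adjusted p = 0.0103) and HMOX1 1.37-fold (0.45, SE 0.14, adjusted p = 0.0347). Of the 9 genes 2 did not overlap between exposed and unexposed libraries, both higher, against 5.45% of all genes higher and 22.7% lower on this scale. The median log2 fold change was 0.45 over the 9 genes and -0.00316 over all genes. With so many genes called across the transcriptome, the share of the 9 that was called in either direction was near the background.

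The calls were not equally firm. Over 17 other settings the TXNRD1 fold change stayed between 0.75 and 1.02 on the log2 scale and was called in 16, and NQO1 stayed between 0.62 and 1.05 and was called in 15. AKR1C2 stayed between 0.49 and 0.82 and was called in 14. Its libraries with and without JQ1 overlapped, with a paclitaxel library lowest in both, and the JQ1 term is the difference at equal paclitaxel and palbociclib exposure. With the experiment as a term, TXNRD1 (adjusted p = 0.032) and NQO1 (0.0497) were called and AKR1C2 (0.0774) and HMOX1 (0.199) were not. With 3 matched pairs as a block, TXNRD1 (0.0347) was called and NQO1 (0.0528), AKR1C2 (0.0787) and HMOX1 (0.203) were not. These 2 fits called 4.98% and 3.94% of all genes. HMOX1 was called in 8 of 17 (adjusted p of 0.0104 to 0.431) and lost its call without DMSO (adjusted p = 0.0788), pre-treatment (0.0869), JQ1-B (0.109) or JQ1+palbociclib (0.0684). Within the paclitaxel experiment the JQ1 terms were 0.79 for TXNRD1, 0.62 for NQO1, 0.73 for AKR1C2 and 0.20 for HMOX1, and within the palbociclib experiment 0.95, 1.02, 0.80 and 0.78 in the same order. The latter set JQ1-B and JQ1+palbociclib against the palbociclib library alone, with no palbociclib term, so the lone library was assumed to vary like the others and the values are read without their calls.

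**Figure D2:**
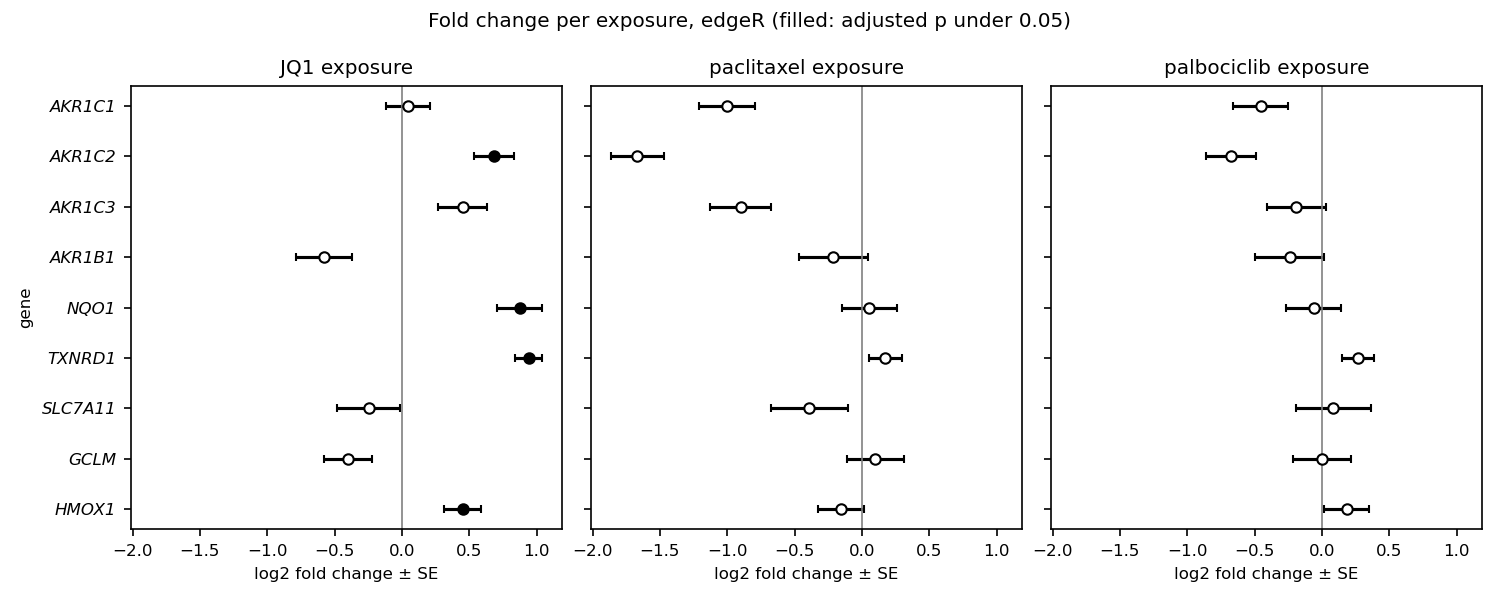
Log2 fold change with its approximate standard error for the 9 tested genes in the JQ1, paclitaxel and palbociclib terms of 1 edgeR model over 8 libraries; filled points have an adjusted p under 0.05. The 4 filled points are all in the JQ1 panel (AKR1C2, NQO1, TXNRD1, HMOX1), and the lowest values are the 3 AKR1C genes in the paclitaxel panel.

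HMOX1, which breaks heme down to biliverdin, iron and carbon monoxide, differed mainly in the palbociclib experiment. It was at 121.4 CPM in pre-treatment, 123.4 in DMSO, 117.6 in paclitaxel, 119 in JQ1-A, 106.5 in JQ1+paclitaxel and 102.4 in palbociclib, and at 150.8 in JQ1-B and 189.1 in JQ1+palbociclib. The libraries JQ1-A and JQ1+paclitaxel lay within the range of the unexposed ones. JQ1+palbociclib was 1.85 times as high as palbociclib (1.75 to 1.95) and 1.25 times as high as JQ1-B (1.20 to 1.31). JQ1-B exceeded JQ1-A 1.27-fold at the same dose (1.20 to 1.34). The JQ1 by palbociclib term was 0.57 (SE 0.22, edgeR adjusted p = 0.237).

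SLC7A11 and GCLM, both of glutathione supply, were lower with JQ1 in the paclitaxel experiment. SLC7A11, the cystine carrier of system xc-, was at 39.9 CPM in pre-treatment, 46.5 in DMSO, 40.3 in paclitaxel, 26.5 in JQ1-A, 16.2 in JQ1+paclitaxel, 28.6 in palbociclib, 33 in JQ1-B and 43 in JQ1+palbociclib. GCLM, the modifier subunit of the enzyme that limits glutathione synthesis, was at 79.6 CPM in pre-treatment, 83.5 in DMSO, 98.6 in paclitaxel, 45.1 in JQ1-A, 43.3 in JQ1+paclitaxel, 54.9 in palbociclib, 53.6 in JQ1-B and 65.1 in JQ1+palbociclib. In both genes JQ1-A and JQ1+paclitaxel were below their partners without JQ1, whereas JQ1+palbociclib was above palbociclib. JQ1+paclitaxel was at 0.403 times paclitaxel in SLC7A11 (0.346 to 0.467) and at 0.439 times in GCLM (0.400 to 0.481). These were 2 of 9 genes past 2-fold in that pair, where 16.1% of all genes were. JQ1+palbociclib was at 1.5 times palbociclib in SLC7A11 (1.35 to 1.68) and at 1.18 times in GCLM (1.09 to 1.29).

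Over all 8 libraries neither gene was called for JQ1. The log2 fold change was -0.25 (SE 0.23, edgeR adjusted p = 0.423) for SLC7A11 and -0.40 (SE 0.18, adjusted p = 0.104) for GCLM. Within the paclitaxel experiment both fell, SLC7A11 by 0.77 on the log2 scale (adjusted p = 0.0114) and GCLM by 0.74 (adjusted p = 0.00689). That fit called 30.4% of all genes for JQ1. Within the palbociclib experiment, with its 1 unexposed library, the values were 0.45 for SLC7A11 and 0.16 for GCLM. GSS and GCLC, which also act in glutathione synthesis, were at 0.38 (adjusted p = 0.0379, called higher) and 0.37 (adjusted p = 0.196) over all 8 libraries. Without the JQ1+palbociclib library the JQ1 terms were -0.54 for SLC7A11 (adjusted p = 0.0317) and -0.63 for GCLM (adjusted p = 0.00498). Without the palbociclib library they were -0.51 (0.0382) for SLC7A11 and -0.60 (0.00542) for GCLM. These 2 fits called 45% and 45.7% of all genes for JQ1. Over 17 other settings the adjusted p was 0.0114 to 0.981 for SLC7A11 (under the threshold in 3) and 0.00498 to 0.843 for GCLM (in 4). The JQ1 by palbociclib term was 0.94 for SLC7A11 (SE 0.24, unadjusted p = 0.00301, adjusted p = 0.147) and 0.79 for GCLM (SE 0.20, unadjusted p = 0.00325, adjusted p = 0.151). That term is the difference of JQ1+palbociclib from JQ1-A and JQ1-B, less that of palbociclib from DMSO and pre-treatment. JQ1-A, DMSO and pre-treatment lie outside the palbociclib experiment, and the difference between the experiments was not tested. None of the 9 genes was called in that term by edgeR (1 of 9288 genes, 0.0108%). An unadjusted edgeR p under 0.05 was found for 4 of the 9 and for 1580 of the 9288 genes. DESeq2 called 0 of the 9 and 34 of the 4426 genes to which it gave an adjusted p (0.768%).

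AKR1B1, which reduces glucose to sorbitol and also lipid aldehydes, was the most abundant of the 10 by UMIs, a scale on which 3′ counts need no length correction but genes can differ in capture. It was at 1456 CPM in pre-treatment, 1245 in DMSO and 1196 in palbociclib. It was at 791 CPM in paclitaxel, 780 in JQ1-A, 791 in JQ1+paclitaxel, 632 in JQ1-B and 517 in JQ1+palbociclib. The 5 lower libraries were thus all those with JQ1 and the paclitaxel library. The JQ1 term was -0.58 (SE 0.21, edgeR adjusted p = 0.059), with values of -0.04 within the paclitaxel experiment and -1.01 within the palbociclib experiment. Without the paclitaxel library it was -0.86 (adjusted p = 0.00404) and without JQ1+paclitaxel -0.86 (adjusted p = 0.00387), and over 17 other settings the adjusted p was 0.00387 to 0.855. The JQ1 by paclitaxel term was 0.98 (SE 0.23, unadjusted p = 0.00198, adjusted p = 0.116). Of the 9 genes 2, AKR1B1 (ratio 0.432) and TXNRD1 (ratio 2.05), differed more than 2-fold between JQ1+palbociclib and palbociclib, against 4.88% of all genes. No gene of the 9 did so between JQ1-A and DMSO (8.67% of all genes) or between JQ1+palbociclib and JQ1-B (1.2%).

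For AKR1C1 and AKR1C3 the JQ1 terms were 0.04 (SE 0.16) and 0.45 (SE 0.18, edgeR adjusted p = 0.0796). AKR1C3 passed the threshold in 5 of 17 other settings (adjusted p of 0.0288 to 0.803 over all 17). These were the fits without the palbociclib library (0.61, adjusted p = 0.0288) or JQ1+palbociclib (0.58, adjusted p = 0.0355), DESeq2 (0.45, adjusted p = 0.0373), no filter on low genes (0.46, adjusted p = 0.0427) and the paclitaxel experiment alone (0.64, adjusted p = 0.03). AKR1C1 changed sign with the scaling of the libraries. With library totals in place of TMM scaling, the median of all genes moved to -0.20 for JQ1. AKR1C1 was then at -0.16, about the same distance above the median gene, and HMOX1 was at 0.25 (adjusted p = 0.251). SRXN1, which restores oxidised peroxiredoxins, had 4 to 21 UMIs per library, or 0.362 to 1.03 CPM, too few to compare.

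The regulators were tested in the same way. NFE2L2 was at 69.7 to 89.6 CPM in the 8 libraries, with a JQ1 term of 0.16 (SE 0.10, edgeR adjusted p = 0.242). KEAP1 was at 23.5 to 25.8 CPM with JQ1 and 27.3 to 48.7 CPM without, and its term of -0.34 (SE 0.12) had an adjusted p of 0.0568. BACH1, at 1.32 to 3.30 CPM, was under the level for testing. Of 8 regulators, 7 were tested, 0 were called higher and 1 lower: SQSTM1, an autophagy receptor that binds KEAP1 (-0.36, adjusted p = 0.0491), with 6 not called. Of all genes 17.8% were called higher and 19.7% lower. RNA levels do not measure the amount of NRF2 protein, which is set mostly by degradation.

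Other genes commonly listed as NRF2 targets did not move one way. Of 30 such genes, 29 were in the table and 26 were tested. Of these, 7 were called higher with JQ1, 3 lower and 16 neither, beside 17.8% higher and 19.7% lower of all genes, so the share called was near the background, with a median log2 fold change of -0.06 against -0.00316 over all genes. GPX4, which removes lipid peroxides, rose from 672.5 ± 90.8 to 1466 ± 68.6 CPM (SD, n = 4 each), a log2 fold change of 1.33 (SE 0.11, edgeR adjusted p = 0.000634). The iron-storage chains FTH1 (1.26, SE 0.14) and FTL (1.17, SE 0.15) rose too, although both have many processed pseudogenes and their counts are uncertain. EPHX1, which opens epoxides, rose by 0.74 (SE 0.19). PIR, an iron-binding nuclear protein, fell by 1.66 on the log2 scale (SE 0.13, adjusted p = 0.000527), from 38.4 to 77.5 CPM without JQ1 to 11.8 to 17.8 CPM with it. These 5 genes were named by a rule that required the libraries with and without JQ1 to be fully apart, so their separation is no added result. Of the 26 tested genes, 4 were fully apart and higher with JQ1 and 5 lower, beside 5.45% and 22.7% of all genes. SLC3A2, which forms the cystine carrier together with SLC7A11, fell by 0.81 (SE 0.25, edgeR adjusted p = 0.0338), but its libraries with and without JQ1 overlapped. Its lowest library was palbociclib without JQ1 (31.5 CPM), below JQ1-B (36.4 CPM) and JQ1+palbociclib (37.5 CPM).

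Of 10 genes of the amino acid response driven by ATF4, which also acts on SLC7A11, 7 were tested, 0 were called higher and 4 lower with JQ1, and 3 were not called, beside 17.8% higher and 19.7% lower of all genes. Their median was -0.49 against -0.00316 over all genes. TRIB3, a pseudokinase induced by that response, fell by 1.15 (SE 0.14, edgeR adjusted p = 0.00152), from 25.1 to 56.8 CPM without JQ1 to 12.7 to 17.1 CPM with it. ATF4 itself fell by 0.39 (SE 0.13, adjusted p = 0.0427). Of 8 further aldo-keto reductases, 7 were in the table and 2 reached the level for testing. AKR7A2, a reductase of aldehydes, rose by 0.53 (SE 0.11, adjusted p = 0.0072), and AKR1A1 was at -0.25 (SE 0.10, adjusted p = 0.0901).

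The AKR1C genes were also detected in fewer cells of the paclitaxel libraries. At such low counts a share falls with the mean level, so it is not separate evidence of fewer expressing cells. Each cell was thinned to 10000 UMIs, which kept 5487 cells that passed the study's filter. A UMI of AKR1C1 was then found in 33.5% of DMSO cells (exact 95% binomial interval 29.1 to 38.1%) and 14.8% of paclitaxel cells (12.3 to 17.5%). AKR1C2 was found in 27% and 10.2%, and AKR1C3 in 52.1% and 24.7%. At least 1 of the 3 was found in 70.6% of DMSO cells and 38.9% of paclitaxel cells, and in 70.8% of JQ1-A and 49% of JQ1+paclitaxel cells. The other libraries lay between, at 59.5% in pre-treatment, 55.4% in palbociclib, 67.3% in JQ1-B and 59% in JQ1+palbociclib. All 3 genes were found together in 9.21% of DMSO cells and 1.37% of paclitaxel cells. With all UMIs kept, AKR1C1 was found in 41.5% of pre-treatment cells in place of 24.9%, so these shares are set by depth, and a single cell line offers no cell type without the gene from which free RNA could be read.

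The shares of the other genes spanned the whole range. AKR1B1 was found in 95 to 99.7% of cells, NQO1 in 83.4 to 97.7%, TXNRD1 in 74.8 to 91.9%, GCLM in 34.3 to 57.4% and SLC7A11 in 12 to 35.7%, the lowest being JQ1+paclitaxel. HMOX1 was found in 45.7 to 54.1% of cells in 7 libraries and in 68.1% in JQ1+palbociclib. SRXN1 was found in 0.225 to 1.19% of cells.

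HMOX1 was spread unevenly among cells, and it was not the only gene of the 10 with a high ratio of variance to mean. The ratio of variance to mean of its thinned UMIs was 2.40 to 6.52 over the libraries, where the median over 1582 genes (those that averaged 0.5 thinned UMI or more in every library) was 1.19 to 1.23 and the 90th percentile 2.09 to 2.56. The 10% of cells with the most HMOX1 held 38.4% of its UMIs in JQ1+palbociclib and 46.9 to 55.3% in the other 7 libraries, and the highest cell, in JQ1-B, had 60 UMIs. AKR1B1, with a mean of 4.75 to 14.2 UMIs per cell, had a ratio of 3.43 to 9.64, above that of HMOX1 in every library but JQ1-B. NQO1, with a mean of 2.50 to 5.79, had a ratio of 1.99 to 4.31. TXNRD1, with a mean of 1.48 to 3.57 UMIs per cell, had a ratio of 1.22 to 1.95, and its top 10% of cells held 25 to 30.2%. In JQ1+palbociclib, where HMOX1 was highest, its variance beyond counting noise relative to the squared mean was the lowest of the 8 libraries (1.05, against 1.45 to 3.87), with the mean at 1.83 UMIs per cell. The variance to mean ratio was 1.11 to 2.74 for AKR1C1, 1.13 to 2.25 for AKR1C2 and 1.52 to 2.37 for AKR1C3. The top 10% of cells held 41 to 56.6% of AKR1C3 UMIs over the libraries. For AKR1C1 the highest such share was 76.8%, in JQ1+paclitaxel, where only 14.9% of cells had a UMI of it. Where so few cells hold a UMI, this share is high by counting alone and does not show unevenness.

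**Figure D3:**
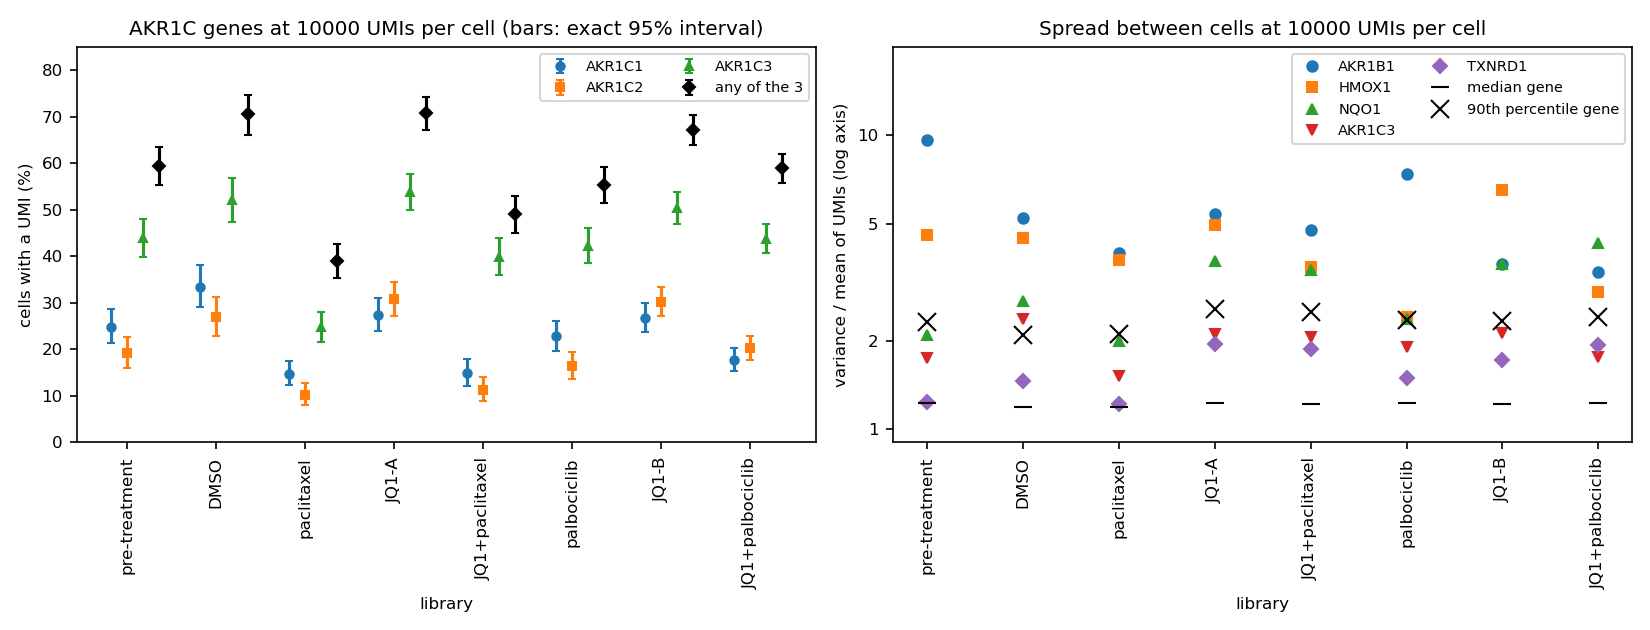
Left, share of cells (%) with a UMI of each AKR1C gene or of any of the 3 after thinning to 10000 UMIs per cell, with exact 95% intervals; right, variance to mean ratio of thinned UMIs between cells (log axis) for 5 genes, with the median and the 90th percentile of 1582 genes. The share with any AKR1C UMI is lowest in paclitaxel (38.9%), and HMOX1 and AKR1B1 lie above the 90th percentile in all 8 libraries.

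Across the cells of a library, the aldo-keto reductases and NQO1 varied together, and TXNRD1 and SLC7A11 had mean correlations near 0 with them. Pearson's r of log2(thinned UMI + 1) was computed within each library for the 45 pairs and averaged over the 8 libraries. AKR1B1 with NQO1 had the highest mean r, 0.365 (0.272 to 0.491). AKR1C3 with AKR1B1 followed at 0.258 (0.162 to 0.325), AKR1C2 with AKR1C3 at 0.246 (0.186 to 0.287), AKR1C3 with NQO1 at 0.244 (0.165 to 0.351), AKR1C1 with AKR1B1 at 0.24 (0.133 to 0.345), AKR1C1 with AKR1C2 at 0.235 (0.112 to 0.354) and AKR1C1 with AKR1C3 at 0.227 (0.121 to 0.298). For all pairs of the 1582 genes the median r was 0.00435 to 0.0204 and the 95th percentile 0.107 to 0.145. These are the 7 highest of the 45 pairs. AKR1C1 with AKR1B1 was above the 95th percentile of its library in 7 libraries and the other 6 pairs in all 8. Cells of a library share capture, depth and culture, counts of most of these genes are low, and reads shared between AKR1C genes would act on pairs within that family.

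TXNRD1 had a mean r of -0.00277 with NQO1 (-0.137 to 0.105), positive in 3 of 8 libraries, and of 0.0117 with AKR1C1, 0.0101 with AKR1C2, -0.027 with AKR1C3 and -0.0408 with AKR1B1. Its highest was 0.0954 with HMOX1, positive in all 8. TXNRD1 and NQO1, which were both higher with JQ1 between libraries, thus did not vary together between cells. AKR1B1 and NQO1 did, although AKR1B1 was not called for JQ1. SLC7A11 had a mean r of 0.0778 with TXNRD1, 0.0773 with GCLM and 0.0855 with HMOX1, each positive in 8 of 8 libraries, and of -0.0449 with AKR1B1, negative in 8 of 8. With NQO1 it was at 0.009, and with the AKR1C genes at 0.00959 to 0.0333. Such weak values in sparse counts are given as a description only.

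**Figure D4:**
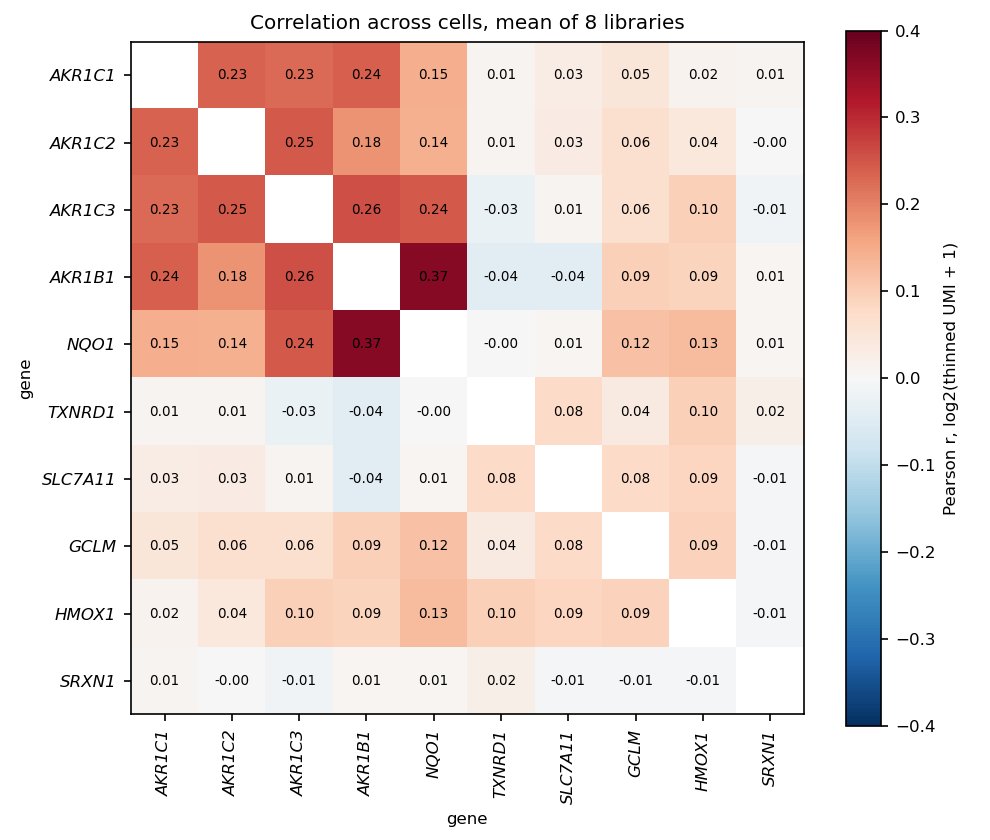
Mean over 8 libraries of Pearson's r across cells for each pair of the 10 genes, on log2(thinned UMI + 1), with red for positive and blue for negative values. The 4 aldo-keto reductases and NQO1 form a block of positive values up to 0.37, and TXNRD1, SLC7A11 and SRXN1 are near 0 with them. SRXN1 was found in at most 1.19% of cells, too few for its values to be read.

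Some of these genes also varied with the mitochondrial share. NQO1 had a mean r of -0.36 with it and AKR1B1 a mean r of -0.286, while the AKR1C genes were between -0.139 and -0.0394 and TXNRD1 was at 0.0678. Given the mitochondrial share and the number of genes detected, an alternative chosen after seeing the data, AKR1B1 with NQO1 was at 0.27 in place of 0.365 and was positive in 8 of 8 libraries. AKR1C2 with AKR1C3 stood at 0.24 and AKR1C3 with NQO1 at 0.204 in that calculation.

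In cells with an AKR1C1 UMI, AKR1C2 was found more often than in cells without one in all 8 libraries, for example in 50.6% against 23.3% of JQ1-A cells and 18.5% against 8.81% of paclitaxel cells. AKR1C3 was found in 63.1% against 46.6% of DMSO cells by the same split and in 33.3% against 23.2% of paclitaxel cells. Cells with an AKR1C1 UMI thus remained more often positive for its neighbours in the library where all 3 were lowest.

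Outside the 10 genes, PRDX1, a peroxiredoxin, varied most like the AKR1C sum across cells among the 1582 genes (mean r 0.239, 0.153 to 0.318), followed by B2M (0.215), SKP1 (0.185), PSMA4 (0.176) and TIMP1 (0.175). PRDX1 was also first for the summed UMIs of NQO1, TXNRD1, GCLM, SRXN1 and SLC7A11 (0.37, 0.309 to 0.442), followed by ANXA2 (0.315), TPI1 (0.299), ENO1 (0.297) and SKP1 (0.287). PRDX1 did not differ beyond the error with JQ1 between libraries (log2 fold change 0.01, SE 0.09). Over the 8 libraries, on log2(CPM + 1) and among 4424 genes, the levels closest to AKR1C1 were those of WDR72 (Pearson's r 0.922), NTAN1 (0.902) and DCTN3 (0.888), and closest to NQO1 those of ALDH3A2 (0.944), ADI1 (0.934) and AC073236.3 (0.925). They are the highest of many with n = 8 and carry no test.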

How the data were processed

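Single-cell libraries were prepared with the Chromium 3′ v2 kit, and the authors aligned reads to hg19 and made UMI counts per gene and cell with Cell Ranger. The deposited counts cover 18955 genes and 5738 cells, and a deposited cell file gives each cell's library and UMI counts. Its annotation was not given in the sources used here, and positions come from GENCODE lifted to GRCh37.

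Groups followed the labels. Counts of all cells were summed per library, since cells are not replicates, and each library is 1 sample. p-values therefore rest on libraries that share an exposure and measure the spread between them. Genes with at least 5 CPM in at least 2 libraries were tested with edgeR 4.0.16 (R 4.3.3, TMM, quasi-likelihood test) on JQ1, palbociclib and paclitaxel exposure as additive terms, and on both interactions in a second model with 2 residual degrees of freedom. Standard errors were derived from the F statistic and are approximate. Calls needed a Benjamini-Hochberg adjusted p under 0.05. In simulated counts for 9288 genes, of which 200 differed by 2 on the log2 scale, 100% of those were recovered in each exposure term, with 13 (JQ1), 9 (palbociclib) and 10 (paclitaxel) unchanged genes called. Smaller differences, such as those fitted for the 9 genes, were not simulated, so the power to call them is not known. Alternatives were DESeq2 1.42.0, library totals, no filter on genes, the study's filter on cells (1 to 15% mitochondrial UMIs, at least 2000 genes), thinned libraries, batch terms, single experiments and leaving out each library.

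Per-cell values used cells of at least 10000 UMIs, thinned to that number (88 cells were too shallow). No doublet caller was run; cells above the 95th percentile of UMIs were left out as an alternative. Intervals are Poisson for CPM, exact binomial for shares and for ratios of 2 counts, at 95%, and cover counting error only. The members and gene lists were chosen with earlier results of these data known. All 10 members are named. Of the lists, NFE2L2, KEAP1, BACH1 and the 6 largest called JQ1 changes without overlap between libraries are named by rule. SQSTM1, SLC3A2, GSS, GCLC, ATF4, AKR7A2, AKR1A1 and PRDX1 levels are given beyond it, chosen after their values were seen. The genes most like the AKR1C sum and the antioxidant sum are the top 5 by mean r, and those most like AKR1C1 and NQO1 over libraries the top 3 of genes that averaged 20 CPM or more.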

Additional observations from a re-analysis of the deposited data

Results flagged for a closer look

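Of the 20 sets of 4 libraries examined (10 genes, with and without JQ1), 1 held a library that stood apart from its group: SRXN1 was at 0.99 CPM in paclitaxel, from 18 UMIs, against 0.362 to 0.425 CPM in the other unexposed libraries. Its gap to the nearest library was 0.90 of the range of the group. Chance alone gives about 1 such flag in 20 sets, and the intervals of these small counts overlap.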

How the results depend on the processing

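For JQ1, 4 of the 9 genes were called in the reported model, beside 37.6% of all genes. With 3 matched pairs as a block 1 was called (TXNRD1, beside 3.94% of all genes). With the experiment as a term 2 were called (TXNRD1 and NQO1, beside 4.98%). DESeq2 called 6 (37.2% of all genes), no filter on low genes gave 6 (22.2%), the paclitaxel experiment alone 6 (30.4%) and library totals 5 (40.8%). Thinned libraries gave 4 (34.9%), as did the study's filter on cells (37.3%). When 1 library was left out, 3 to 7 were called (19 to 45.7% of all genes), the 7 without palbociclib. TXNRD1, NQO1 and AKR1C2 were called in all 8 of the latter fits. No gene of the 9 was called for the other terms, and exceptions were DESeq2 (1 for palbociclib, 2 for paclitaxel, 1 for JQ1 by paclitaxel), no filter on low genes (1 for paclitaxel, 2 for each interaction) and the paclitaxel experiment alone (1 for paclitaxel). Leaving out 1 library gave 0 to 0 for palbociclib and paclitaxel. The sign of the JQ1 fold change turned for AKR1C1 with library totals (-0.16) and within the palbociclib experiment (-0.15), for SLC7A11 (0.45) and GCLM (0.16) within the palbociclib experiment, and on leaving out 1 library for AKR1C1 (-0.0949 to 0.26) and SLC7A11 (-0.54 to 0.00999). None of these reversed values was called, and the cause was not tested.

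The number of all genes called for JQ1 was 3488 in the reported model, 361 with matched pairs, 463 with the experiment as a term, 131 within the palbociclib experiment and 1760 to 4190 on leaving out 1 library. With library totals 862 genes were higher and 2925 lower, against 1655 and 1833. For palbociclib it was 26, against 515 with DESeq2, 205 without the filter, 0 with the experiment as a term and 0 to 938 on leaving out 1 library. For paclitaxel it was 0, against 9 with DESeq2, 2 without the filter, 2 within its experiment and 0 to 4 on leaving out 1 library. For the interactions it was 36 with paclitaxel (75 with DESeq2, 724 without the filter) and 1 with palbociclib (34 and 689).

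Of 180 alternative mean correlations, 176 moved by less than the SD between libraries. Leaving out cells of high UMIs kept all 80 shares within their intervals, and keeping all UMIs moved 75 of 80. Depth limits SRXN1 and BACH1, and comparisons of a pair rest on 1 library a side.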
